A study of Capsella orientalis and Capsella grandiflora with 23 samples.

Results

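The subject here is a stretch of 1.1 Mb on scaffold 4 of the Capsella assembly used by the authors, and the maternal share of every gene that starts between bases 1800000 and 2900000. Membership was by start position alone, and the stretch was selected on the maternal shares of these same tables, because genes read mainly from the paternal allele lie close together in it. The parental shares of its genes are therefore given as a description and carry no test. In all, 176 of the 23185 genes listed in the deposited tables start in the segment. Genes are identified by their first and last base and strand on scaffold 4. The sources used here do not give the genome build, and gene names and functions were not used.

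The study crossed accessions of Capsella orientalis (Co), which selfs, and of Capsella grandiflora (Cg), which outcrosses, in both directions. Both belong to the family of Arabidopsis. Per the labels, Cg was crossed as A × B, B × A, C × D and D × C, and Co as A × B and B × A, with repeat runs. Emasculated flowers were pollinated by hand, and endosperm was dissected 6 days later from 300 to 500 seeds per sample, so each library is a pool of many seeds. RNA reads were counted for the mother's and the father's allele at SNPs between the crossed accessions. The leaf DNA libraries, bisulfite ones included, were not analysed here.

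The 4 deposited tables of these counts are called Cg pair 1, Cg pair 2, Co pair 1 and Co pair 2 here, each with a direction 1 and a direction 2. The columns carry no sample name, so the mother's accession is not known for any direction. For Co the labels name only A × B and its reciprocal, so both Co pairs come from the same 2 accessions. Agreement between the Co pairs is thus not agreement over accessions. Over all genes, the directions of Cg pair 1 summed to 9508567 and 9378895 counts and those of Cg pair 2 to 601511 and 1099158. In Co pair 1 they summed to 520680 and 208132, and in the other Co pair to 570062 and 596843. Nothing in the labels says how plants were kept apart between libraries, so the spread between directions may be partly technical. Intervals below are 95% Wilson intervals and cover counting error only, and a read over several SNPs of a gene is counted at each of them.

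Genomic imprinting is the unequal use of the maternal and paternal copy of a gene according to the parent it came from. In flowering plants it is known mainly from endosperm, the seed tissue that feeds the embryo and that receives 2 maternal genomes and 1 paternal genome. A gene read equally from all of its copies therefore has a maternal share of 66.7%, the 2:1 dosage. Paternally expressed genes fall far below that value in both directions of a reciprocal cross, and maternally expressed genes lie near 100%. A gene whose share is high in one direction and low in the other follows an accession, not a parent.

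Of the 176 segment genes, 149 had an informative SNP in Cg pair 1, 160 in Cg pair 2, 63 in Co pair 1 and 58 in Co pair 2. At least 20 counts in both directions, the minimum for a gene to be called measured, were reached by 114, 68, 11 and 23 of them. In 39 genes no direction of any table reached that minimum. The Cg pairs shared 165 segment SNPs, which is 10.9% of those in pair 1 and 8.82% of those in pair 2, so these pairs read the same genes largely at different bases. The Co pairs shared 107 SNPs, 78.7% of those in pair 1 and 93% of those in pair 2. A Cg and a Co table shared at most 3 SNPs.

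Measured genes were sorted by size of the share in both directions of a table. Paternal genes had under 50% maternal counts in both, genes near the dosage had 50% to 80% in both, and maternal genes had over 80% in both. Switching genes had under 50% in one direction and over 80% in the other, and all others are called mixed.

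In Cg pair 1, 14 of 114 measured segment genes (12.3%) were paternal, against 2.64% of all measured genes and 34 of 1212 genes (2.81%) on the rest of scaffold 4. In Cg pair 2, 8 of 68 (11.8%) were paternal, against 5.19% of all measured genes and 3.61% on the rest of the scaffold. This excess of paternal genes is what the segment was chosen for. Genes near the dosage were still the commonest class. They numbered 67 in Cg pair 1 (58.8%, against 58.8% of all genes) and 34 in Cg pair 2 (50%, against 34.3%). Segment genes were counted more deeply than all genes, as given below, and the part of depth in these shares was not tested. Maternal genes numbered 3 in Cg pair 1 (2.63%, against 3.34%) and 0 in Cg pair 2 (against 0.925%). Switching genes numbered 12 in Cg pair 1 (10.5%, against 14.5%) and 9 in Cg pair 2 (13.2%, against 17%).

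Co gave no paternal gene in the segment. The count was 0 of 11 in Co pair 1, against 2.32% of all measured genes, and 0 of 23 in Co pair 2, against 1.49%. Maternal genes also numbered 0 in both, against 2.61% and 3.57%. Of the paternal genes of Cg described below, 1 was measured in Co pair 1 and 2 in Co pair 2, so these zeros say little about them. Genes near the dosage numbered 4 of 11 in Co pair 1 (36.4%, against 44.8%) and 8 of 23 in Co pair 2 (34.8%, against 50.1%). Switching genes numbered 3 in Co pair 1 (27.3%, against 17.7%) and 7 in Co pair 2 (30.4%, against 19.5%).

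**Figure D1:**
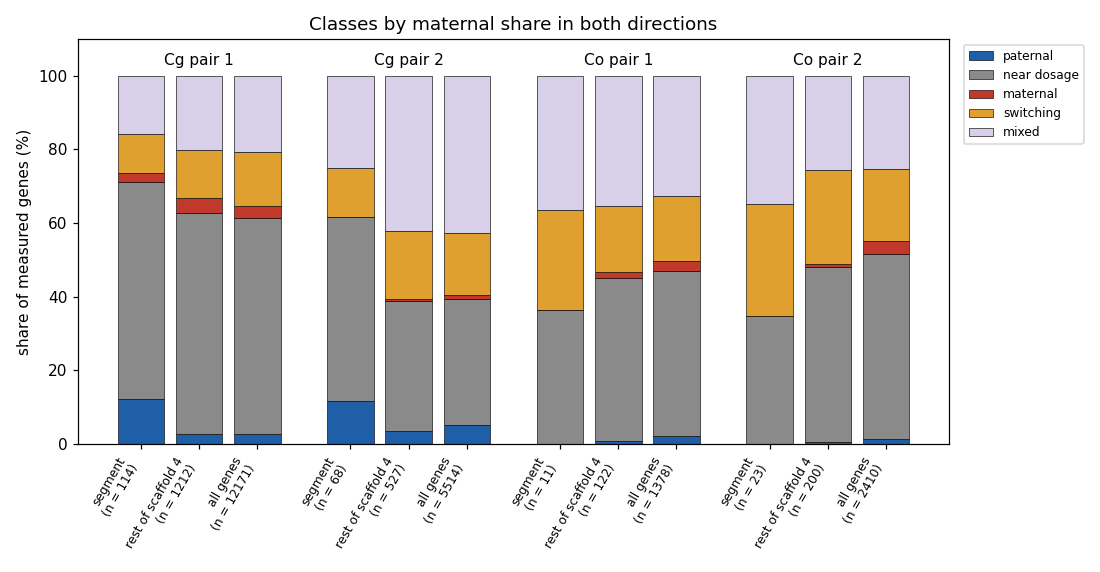
Share of measured genes in each class (vertical axis, percent) for the segment, the rest of scaffold 4 and all genes, in each of the 4 tables; n is the number of genes with at least 20 counts in both directions. Paternal genes made up 12.3% and 11.8% of measured segment genes in the Cg pairs, against 2.64% and 5.19% of all genes, and none in either Co pair.

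In all, 10 genes met the rule for a named paternal gene, which asks for a paternal class in at least 2 tables or a share under 25% in both directions of Cg pair 1. They are called P1 to P10 in order along the segment. Among them, 5 lie on the plus strand and 5 on the minus strand, and their median length is 2358.5 bases, against 2483 bases over all measured genes of Cg pair 1. Of their SNPs in that pair, 71.3% are in annotated exons, against 53.3% over all measured genes.

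P1 (1822859–1825651, minus strand) had a maternal share of 10.8% of 675 counts in direction 1 and 4.04% of 991 in direction 2 of Cg pair 1. Pair 2 gave 8.0% of 25 (interval 2.22% to 25%) and 50% of 64 (38.1% to 61.9%). P1 was thus paternal in 3 directions, and its last one lay at the boundary of the class and below the dosage. Its SNPs in that last direction went different ways, as given below.

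P2 (1903609–1906135, minus strand) had 5.69% of 1230 and 3.33% of 570 counts in Cg pair 1. Pair 2 gave 17.4% of 23 (6.98% to 37.1%) and 70.3% of 37 (54.2% to 82.5%). The sum of direction 2 of pair 2 was at the dosage within its counting error, far above the other directions. Its SNPs went different ways, as given below.

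P3 (1907519–1908913, plus strand) starts 1383 bases beyond the end of P2. It had 10.1% of 1497 and 8.92% of 942 counts in Cg pair 1, and 6.67% of 105 and 6.98% of 172 in Cg pair 2. It was the most even of the named paternal genes, with all 4 directions within 4 points of each other.

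P4 (1940495–1941686, plus strand) had the lowest shares of the 10 in Cg pair 1. There it had 0.941% of 1807 counts (0.588% to 1.5%) and 1.94% of 981 (1.24% to 3.01%). Pair 2 gave 0 of 25 maternal counts, with an interval that reached up to 13.3%, and 33.3% of 21 (17.2% to 54.6%). Direction 2 of pair 2 was again the highest, on few counts.

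P5 (2097137–2100529, plus strand) was the mildest. It had 22.6% of 2342 and 34.2% of 1393 counts in Cg pair 1, and 32.7% of 159 and 38.4% of 294 in Cg pair 2. All 4 directions lay well under the dosage and well above the levels of P1 to P4 in pair 1.

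P6 (2449299–2451523, plus strand) had 14.3% of 575 and 37.4% of 912 counts in Cg pair 1, and 12.1% of 107 and 24.5% of 151 in Cg pair 2. P7 (2463848–2467203, plus strand) had 24.3% of 222 and 11.6% of 318 in Cg pair 1, and 15.7% of 70 and 37.7% of 146 in Cg pair 2. By their gene sums both were paternal in all 4 directions. The higher share of pair 1 was in direction 2 for P6 and in direction 1 for P7.

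P8 (2545639–2548130, minus strand) was the most deeply counted gene of the segment. It had 13.3% of 12267 (12.7% to 13.9%) and 12.3% of 10776 counts (11.7% to 12.9%) in Cg pair 1. Pair 2 gave 5.97% of 134 (3.06% to 11.3%) and 67.7% of 201 (60.9% to 73.7%). Its bias in pair 1 was the same in both directions to about 1 point. In pair 2 direction 1 was paternal, and the sum of direction 2 lay at the dosage over SNPs that went different ways.

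P9 (2853692–2854453, minus strand) had 7.37% of 1912 and 16.3% of 2049 counts in Cg pair 1, and 16.3% of 43 and 33.9% of 62 in Cg pair 2. P10 (2870727–2872237, minus strand) had 27.0% of 1289 and 10.0% of 959 in Cg pair 1, and 12.3% of 604 and 18.8% of 867 in Cg pair 2. P10 was the best covered of the 10 in pair 2, and its 4 directions were all paternal there and in pair 1.

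**Figure D2:**
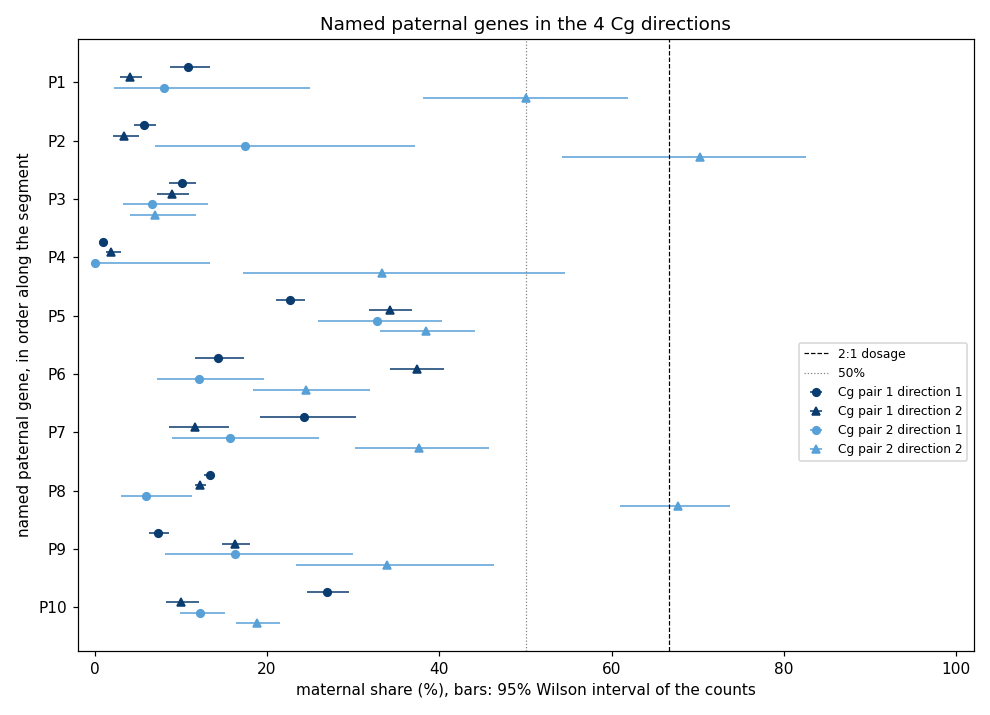
Maternal share (horizontal axis, percent) of P1 to P10 in the 4 Cg directions, with bars for the 95% Wilson interval of the counts; the dashed line is the 2:1 dosage and the dotted line 50%. All directions lie under 50% for 7 genes, and direction 2 of pair 2 reaches 50% for P1, 70.3% for P2 and 67.7% for P8.

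Of the 10 genes, 7 (P3, P4, P5, P6, P7, P9 and P10) were paternal in all 4 Cg directions. They were 7 of the 67 segment genes measured in all 4 (10.4%), against 1.04% of 4404 genes over all scaffolds, or 46 genes. Maternal in all 4 were 0 of the 67, against 0.409%. P1, P2 and P8 were mixed in Cg pair 2, where direction 2 was not under 50%. With exonic SNPs alone, P1 had 10% of 20 and 39.2% of 51 counts in pair 2, under 50% in both directions. P2 and P8 stayed over 50% in direction 2. Direction 2 of pair 2 gave the highest of the 4 shares for 7 of the 10 genes (70%), and for 24 of the other 57 segment genes measured in all 4 (42.1%). The part of that library in these values was not tested.

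Summed over P1 to P10, the maternal share was 13.0% of 23816 counts and 13.9% of 19891 in Cg pair 1, and 13.7% of 1295 and 29.9% of 2015 in Cg pair 2. P8 supplied about the same number of counts in pair 1 as the rest together. Without P8 the sums were 12.7%, 15.9%, 14.6% and 25.7%, so the level in pair 1 does not rest on this gene.

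A model of all Cg genes with at least 20 counts in every direction gave each gene a log2 deviation of the maternal to paternal ratio from the dosage, where negative values are paternal. Deviations were −7.16 ± 0.59 for P4, −4.46 ± 0.38 for P3, −4.17 ± 0.62 for P1 and −3.98 ± 0.94 for P2 (SE, n = 4 directions). They were −3.46 ± 0.44 for P9, −3.39 ± 0.25 for P10 and −3.23 ± 0.33 for P8. The smallest were −2.94 ± 0.45 for P7, −2.93 ± 0.39 for P6 and −2.12 ± 0.29 for P5. P4 had 0 maternal counts of 25 in direction 1 of Cg pair 2. How far the size of its value depends on the small prior count of the model was not tested. The median over the 67 segment genes fitted was −0.22, against −0.27 over all genes fitted. The model called 9 segment genes paternal (P1 and P3 to P10, against 1.45% of all genes fitted) and 0 maternal (against 0.59%), with 2.04% of all genes called on either side. These calls use the contrast for which the segment was chosen, and nothing is read from them. The count was 9 without direction 1 of pair 1, 0 without its direction 2, 1 without direction 1 of pair 2 and 0 without its direction 2.

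Another 4 genes were paternal in Cg pair 1 but outside the naming rule. The gene at 1832586–1834251 (minus strand) had 5.82% of 962 counts in direction 1 and 49.6% of 2694 in direction 2, just inside the limit. Pair 2 gave 21.1% of 19 and 79.2% of 24 counts, so in both pairs the directions differed widely. The gene at 1954476–1955564 had 47.5% of 101 and 40.8% of 201 counts in pair 1, which is close to an even split of the counts. The gene at 1978943–1981224 had 27.7% of 401 and 6.48% of 463, and that at 2004096–2008040 had 45.8% of 24 and 14.0% of 57. None of these 4 reached 20 counts in both directions of pair 2.

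The paternal genes were not spread evenly. Cut into 10 windows of 110 kb, the segment held 4 paternal genes of 11 measured in the first window of Cg pair 1 and 4 of 19 in the second. The third window held 1 of 17, and the next 2 held 0 of 9 each. The sixth held 1 of 11, the seventh 2 of 13, the eighth 0 of 6, the ninth 0 of 8 and the last 2 of 11. Between P5 and P6, 31 measured genes in a row (349 kb) were not paternal, and between P8 and P9 another 23 (306 kb).

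**Figure D3:**
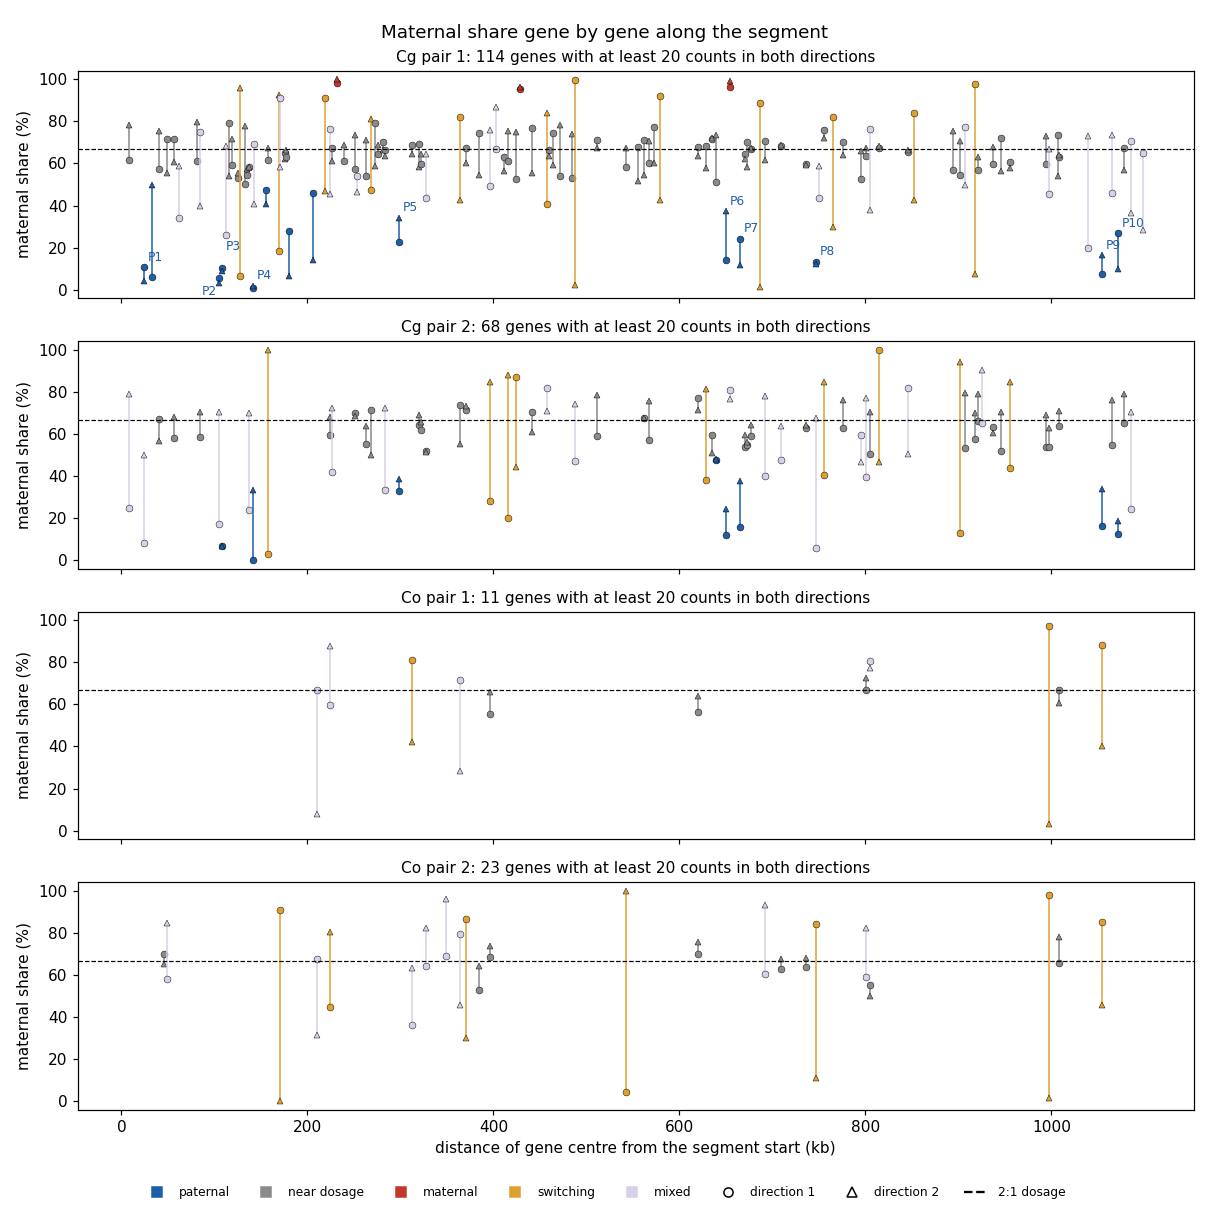
Maternal share (vertical axis, percent) of each measured gene against the distance of its centre from the segment start (horizontal axis, kb), 1 panel per table; circles are direction 1, triangles direction 2, a line joins them, colour gives the class and the dashed line the 2:1 dosage. In Cg pair 1 paternal genes crowd at the left end and then lie singly or in pairs among genes near the dashed line, and the Co panels hold 11 and 23 genes.

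Immediate neighbours shared the paternal class in 3 of the 113 pairs of successive measured genes in Cg pair 1 (2.65%), against 56 of 12126 over all scaffolds (0.462%). The first is P1 with the gene at 1832586, 6934 bases apart and both on the minus strand. The second is P2 with P3, 1383 bases apart. P2 is on the minus strand and P3 on the plus strand, so they point away from each other. The third joins the genes at 1978943 and 2004096, 22871 bases apart and both on the plus strand, of which the second has few counts. The clustering itself was the ground for choosing the segment, so this excess is no separate finding.

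The same neighbours look different in Cg pair 2. There P3 was paternal, and P2 was at 17.4% and 70.3%. The only 2 successive measured genes of pair 2 that were both paternal, 1 of 67 pairs (1.49%, against 0.437% over all scaffolds), were the gene at 2438014–2441110 and P6. That gene had 47.4% of 38 and 48.1% of 181 counts in pair 2, and 51.0% of 359 and 73.4% of 203 in pair 1. It was thus near the dosage in pair 1 and slightly inside the paternal limit in pair 2.

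The 14 paternal genes of Cg pair 1 have 28 neighbour positions among the measured genes. Of these, 11 (39.3%) held a gene near the dosage, against 58.8% of all measured genes. Another 8 held a mixed gene, 6 a paternal, 2 a maternal and 1 a switching one, and a gene between 2 paternal genes counts at both. P5 alone had genes near the dosage on both sides, 9 paternal genes had one on 1 side, and P2, P3, P9 and the gene at 2004096 had none. P5 lies between a gene with 66.4% and 63.3% (start 2082752) and one with 68.5% and 64.4% (start 2109996) in Cg pair 1. P4 lies 500 bases from a mixed gene with 69.4% and 40.7% (start 1942187) and, on its other side, 2444 bases from a gene with 58.2% and 58.4% (start 1936201). P8, the deepest paternal gene, lies 1574 bases from a mixed gene with 43.7% and 58.9% (start 2549705) and 3251 bases from a gene with 59.7% and 59.1% (start 2530377). The neighbours of these 3 genes thus had higher shares than the paternal gene itself in both directions. P9 and P10 are 16.3 kb apart with 1 measured gene between them, at 2863382, which was mixed in pair 1 (45.8% of 2646 and 73.5% of 2352) and near the dosage in pair 2 (54.9% of 253 and 76.2% of 432).

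P6 and P7 flank a gene that was maternal in Cg pair 1 and mixed in Cg pair 2. The gene at 2451708–2456314 (minus strand) had 96.4% of 337 counts (93.9% to 98.0%) and 99.1% of 434 (97.7% to 99.6%) in Cg pair 1, and 80.8% of 323 and 76.6% of 589 in Cg pair 2. Of its SNPs with at least 10 counts in both directions, 2 of 2 in pair 1 and 4 of 8 in pair 2 were over 80% in both. In pair 2 the SNP at 2452670 had 0% of 23 and 93.9% of 33 counts. The deviation of this gene from the dosage was 2.46 ± 0.73 (SE, n = 4 directions). It begins 184 bases beyond the end of P6, and P7 follows 7533 bases after it. P6 and this gene point towards each other, and the RNA kit named in the labels does not mark strand, so reads near their ends cannot be assigned to one of them by strand. Within 17.9 kb, shares in pair 1 thus ran from 14.3% and 37.4% to 96.4% and 99.1% and back to 24.3% and 11.6%.

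The other maternal genes of Cg pair 1 were not beside paternal ones. The gene at 2031299–2032626 (minus strand) had 98.2% of 165 counts in direction 1 and all of 104 in direction 2. In pair 2 it had 7 counts in direction 1 and 93.0% of 43 in direction 2. The gene at 2226844–2229687 (minus strand) had 95.3% of 64 and 96.3% of 216 counts, with 4 counts and 90.9% of 44 in pair 2. In Co pair 1 all 36 counts of this gene in direction 1 were maternal, with none in direction 2, and Co pair 2 held 2 counts in each direction.

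The SNPs within a paternal gene mostly had the same bias in Cg pair 1. Of the SNPs of P1 to P10 with at least 10 counts in both directions, 57 of 62 in Cg pair 1 and 25 of 31 in Cg pair 2 were under 50% maternal in both. In pair 2, P10 supplied 10 of these 31 SNPs, all under 50%, and P1, P4 and P7 supplied 0. SNPs with fewer counts in a direction are left out, among them opposed SNPs of P1, P5 and P7 given below. All 9 SNPs of P4 in pair 1 had at most 1.96% in direction 1 and 3.54% in direction 2. The 5 SNPs of P9 in pair 1 ran from 5.90% to 10.1% in direction 1 and from 14.4% to 17.9% in direction 2. The 10 SNPs of P10 in pair 2 ran from 8.33% to 23.7% and from 9.21% to 39.3%.

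The 5 exceptions in Cg pair 1 lay in P2, P5, P6 and P8. In P8, 10 of 11 SNPs had under 50% in both directions, and the SNP at 2546449, outside annotated exons, had 207 maternal and 0 paternal counts in direction 1 against 1 and 266 in direction 2. In P2 the SNP at 1904961, also outside exons, had 92.6% and 0%, while the other 7 SNPs had at most 6.55% and 6.06%. In P5 the exonic SNP at 2100517 had 68.6% and 0%. In P6 the SNPs at 2449657 (50% and 40.6%) and 2450348 (17.4% and 76.7%) stood apart from 3 others of at most 16.1% and 36.5%. With exonic SNPs alone P2 had 3.74% and 3.41%, and P8 had 11.9% and 12.6%.

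Direction 2 of Cg pair 2 split P8 by SNP. The SNPs at 2547701 and 2547723 had 0% of 37 and 5.56% of 36 counts in direction 1, and 100% of 56 and 91.9% of 62 in direction 2. The SNPs at 2546135 and 2547815 had 5.88% of 34 and 11.5% of 26 in direction 1, and 19.5% of 41 and 35.3% of 34 in direction 2. The SNP at 2546135 was also read in Cg pair 1, where it had 8.16% of 1042 and 9.30% of 785 counts. The value of 67.7% for P8 in that direction is thus a mean over SNPs that went different ways. P2 was split likewise in the same direction, on 37 counts. The SNPs at 1904103 and 1904126 gave 10 maternal and 0 paternal, and 13 and 1 counts, and that at 1904949 gave 3 maternal ones. The SNPs at 1904628, 1904961 and 1904962 gave 3, 4 and 3 counts, all paternal. P5, P6 and P7, paternal by their gene sums, also held opposed SNPs in that direction. In P7 the SNPs at 2465821 and 2466161 had 100% of 14 and 84.6% of 13 counts, and that at 2465314 had 0% of 15. In P6 the SNP at 2451298 had 100% of 16 and that at 2451280 had 5% of 20. In P5 the SNPs at 2099033 and 2098831 had 100% of 17 and 74.1% of 27, and that at 2098830 had 7.41% of 27.

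**Figure D4:**
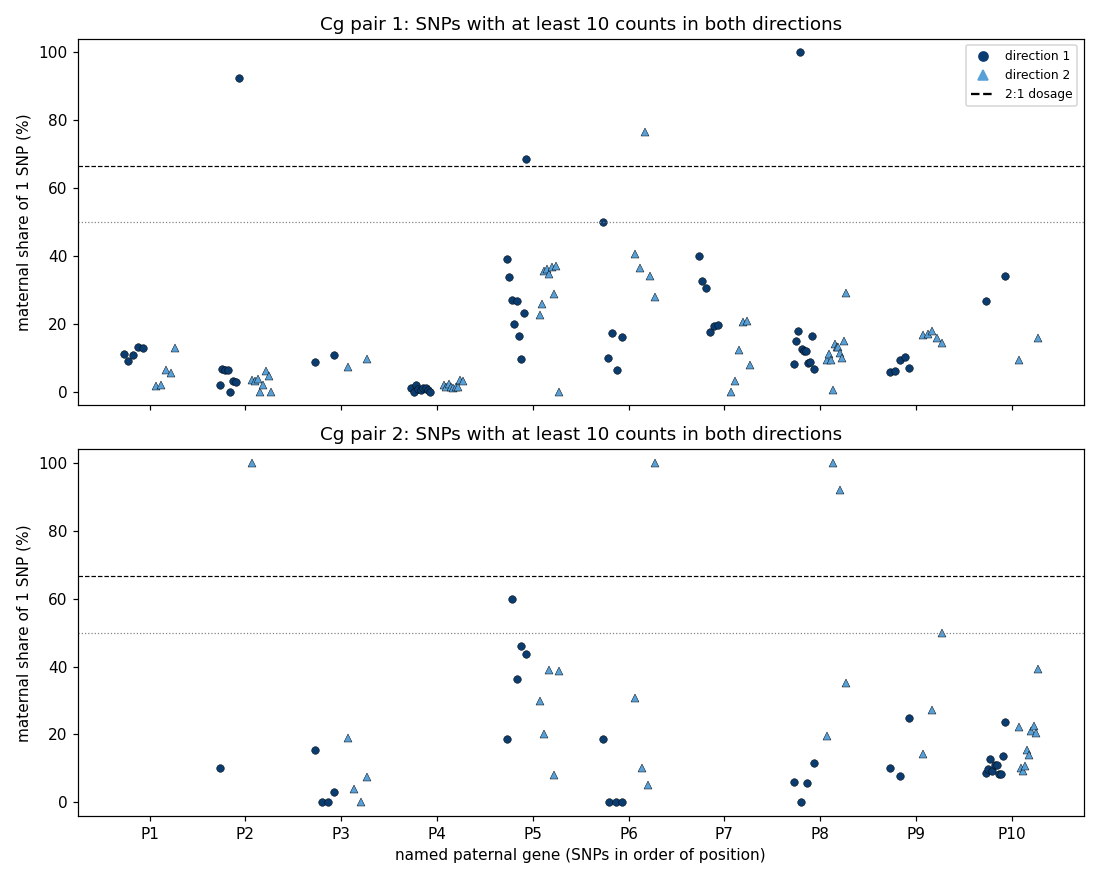
Maternal share (vertical axis, percent) of each SNP of P1 to P10 with at least 10 counts in both directions, Cg pair 1 above and Cg pair 2 below; circles are direction 1 and triangles direction 2, the dashed line is the 2:1 dosage and the dotted line 50%. In pair 1, 57 of 62 SNPs lie under 50% in both directions, and single points near 100% belong to P2 and P8.

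The deep counts of P8 weigh on the segment as a whole. Over all its counts, the segment had a maternal share of 53.7% and 57.6% in the directions of Cg pair 1, against 63.9% and 65.6% over all genes. Without P8 it was 58% and 61.4%, and without P1 to P10 it was 63.0% and 65.0%. The median over segment genes was 63.4% and 61.7%, against 65.9% and 66.7% over all genes. For Cg pair 2 the segment had 53.4% and 63.6% over all counts, against 52.7% and 61.3% over all genes. Without P1 to P10 it had 59.6% and 68.3%. Outside the named paternal genes, the segment was thus within about 1 point of the total over all genes in pair 1 and about 7 points above it in pair 2. That total keeps the paternal genes of all scaffolds, so the comparison is not like for like.

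Among genes measured in both Cg pairs, classes other than paternal often differed between pairs. Of 42 genes near the dosage in pair 1, 24 were near the dosage in pair 2, 9 were mixed, 8 switched and 1 was paternal. Of 5 that switched in pair 1, 3 were near the dosage in pair 2. The 24 genes near the dosage in all 4 directions made up 35.8% of the 67, against 25.7% of all genes measured in all 4. Segment genes were counted more deeply. Among genes with at least 20 counts in a direction, their median was 671.5 and 602 counts in Cg pair 1 (against 247 and 240 over all genes). In Cg pair 2 it was 63 and 83 (against 50 and 52). The comparison is thus not like for like, and the part of depth in it was not tested.

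The deepest of these 24 show how closely a gene followed 2:1. The gene at 2119235–2120092 (plus strand) had 69.3% of 3454 and 58.2% of 4334 counts in Cg pair 1, and 64.2% of 961 and 69.2% of 984 in Cg pair 2. The gene at 2049858–2051500 (minus strand) had 57.2% of 5051 and 73.4% of 5953, and 69.8% of 172 and 68.4% of 228. In pair 1 both differ between directions by more than their counting error, on opposite sides of the dosage.

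The gene at 2366084–2368668 (plus strand) had 60.1% and 70.7% in Cg pair 1, and 57.1% and 75.5% in Cg pair 2. The gene at 2791900–2796535 (plus strand) had 59.5% and 72.9%, and 53.9% and 68.9%. The gene at 2061441–2064154 (plus strand) had 54.1% and 71.3%, and 55.4% and 63.7%. In these 3 genes direction 2 was the higher one in both pairs, but none left the range from 50% to 80%. The interval of the share covered 66.7% in both directions for 12 genes of Cg pair 1, 14 of Cg pair 2, 3 of Co pair 1 and 4 of Co pair 2. It did so in both Cg pairs for the gene at 2475454–2478042 alone, which had 66.9% of 1065 and 67.2% of 1249, and 59.0% of 61 and 64.0% of 100. A narrow interval in a deep gene misses 66.7% more easily, so these counts also follow depth.

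**Figure D5:**
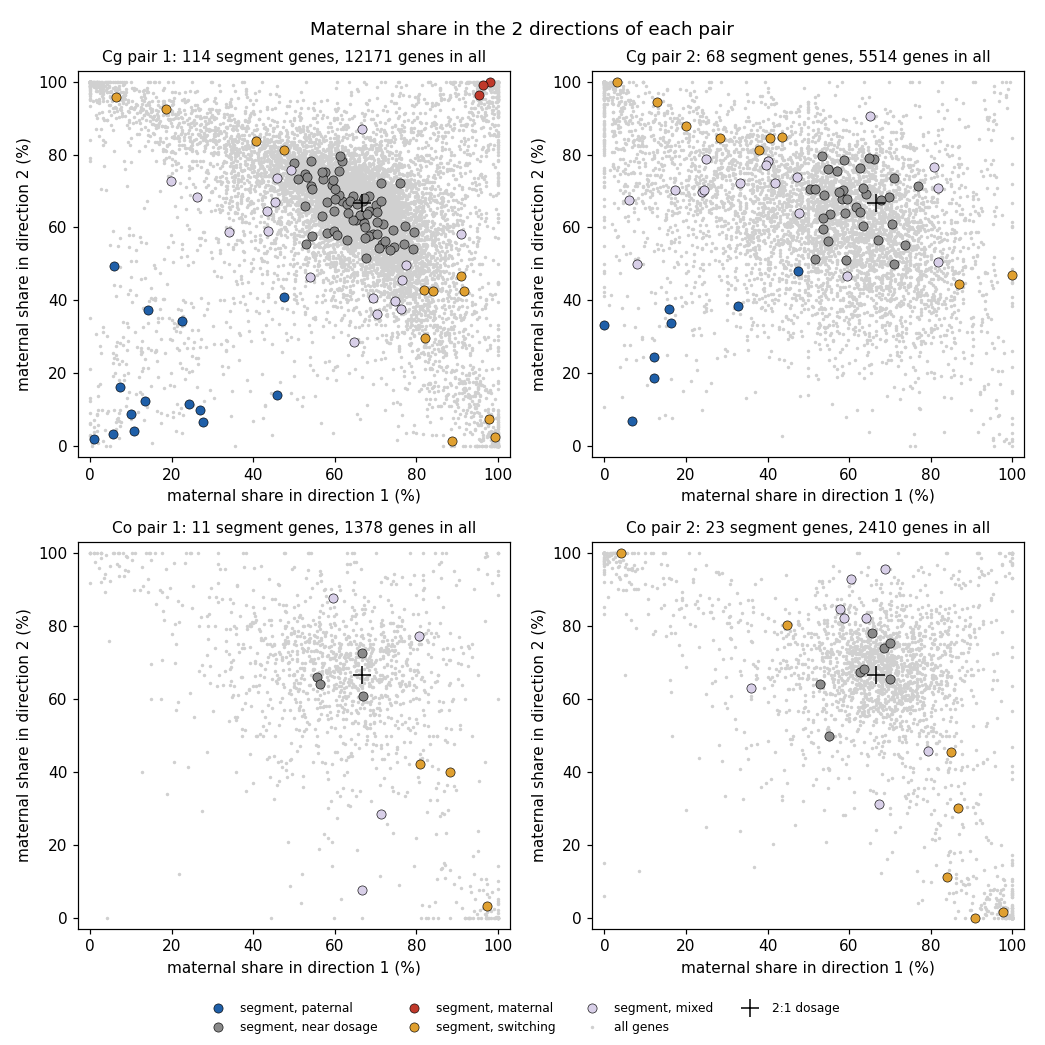
Maternal share in direction 2 (vertical axis, percent) against direction 1 (horizontal axis, percent), 1 panel per table; small grey points are all measured genes, larger points are segment genes coloured by class, and the cross is the 2:1 dosage. Segment genes near the dosage gather round the cross, paternal ones lie at lower left in the Cg panels, and switching ones lie towards the upper left or lower right corner.

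In all, 9 segment genes were measured in all 8 directions of both species, and 2 of them stayed near the dosage throughout. The gene at 2418871–2421992 (minus strand) had 67.9% of 3045 and 63.7% of 3577 counts in Cg pair 1 and 77.0% of 474 and 71.3% of 415 in Cg pair 2. In Co pair 1 it had 56.4% of 165 and 64.0% of 114, and in Co pair 2 70.1% of 224 and 75.4% of 203. The gene at 2805650–2810996 (minus strand) had 63.2% of 272 and 64.0% of 228 in Cg pair 1, and 63.5% of 425 and 70.8% of 500 in Cg pair 2. In Co pair 1 it had 66.9% of 284 and 60.8% of 186, and in Co pair 2 65.6% of 262 and 78.1% of 607. It overlaps a gene on the plus strand at 2804663–2809855, and reads from the overlap cannot be assigned by strand.

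In Co, 3 segment genes were near the dosage in all 4 directions (27.3% of 11, against 37.8% of all genes measured in all 4), and 0 were paternal (against 0.147%) or maternal (against 1.55%). Besides these 2 it was the gene at 2191313–2200634 (plus strand), with 55.6% of 196 and 66.1% of 115 in Co pair 1 and 68.6% of 382 and 73.9% of 433 in Co pair 2. In Cg the same gene had 49.4% of 2451 and 75.7% of 2302 in pair 1, and 28.3% of 173 and 84.7% of 261 in pair 2. It stayed between 50% and 80% in Co, where the intervals of direction 1 of pair 1 (48.6% to 62.4%) and direction 2 of pair 2 (69.6% to 77.8%) did not cover 66.7%. Direction 2 was the higher one in all 4 pairs, where both Co pairs come from the same 2 accessions.

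Of the other genes measured in all 8 directions, those at 2598427–2602183 and 2602582–2607333 lie 398 bases apart on opposite strands. The first had 63.6% and 67.2% in Cg pair 1, 39.7% and 77.1% in Cg pair 2, 66.7% and 72.7% in Co pair 1, and 58.8% and 82.2% in Co pair 2. The second had 76.3% and 37.7%, 50.3% and 70.5%, 80.6% and 77.3%, and 55.0% and 50% in the same order. Most of these shares lay above 50%, and each gene fell under 50% in 1 Cg direction. The gene at 2162670–2164881 had the higher share in direction 1 of every table. Its shares were 81.9% and 42.7% in Cg pair 1, 73.8% and 55.3% in Cg pair 2, 71.4% and 28.6% in Co pair 1, and 79.5% and 45.7% in Co pair 2.

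The paternal genes of Cg could hardly be followed into Co. Only P1, P8 and P9 had SNPs in both Co pairs and P7 in Co pair 1. P9 was the only one with 20 counts in all 4 Co directions. It had 88.4% of 43 (75.5% to 94.9%) and 40.0% of 20 (21.9% to 61.3%) in Co pair 1, and 85.0% of 40 (70.9% to 92.9%) and 45.5% of 33 (29.8% to 62.0%) in Co pair 2. It switched in both Co pairs, and its deviation from the dosage was 0.14 ± 0.66 in Co and −3.46 ± 0.44 in Cg (SE, n = 4 directions each). In the test for accession described below, P9 was not called in either Co pair (terms of 1.74 ± 0.97 and 1.37 ± 0.91). P8 had 84.0% of 25 and 11.1% of 54 in Co pair 2, and 15 and 3 counts in Co pair 1. Neither gene was paternal in both directions of a Co pair. P1 and P7 had at most 7 counts in a Co direction, from which no share can be read. The model called 2 of the 11 Co genes fitted paternal, those at 2010474 and 2796315 (against 6.34% of all genes fitted), and 0 maternal (against 3.69%), and nothing is read from this contrast.

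Whether an allele was read more from one accession, whatever parent it came from, was not used to choose the segment and was tested in the same model. The accession term is the log2 ratio of the allele of the mother of direction 1 to the other allele. In Cg, 7 of the 67 segment genes fitted (10.4%) were called for accession in either pair, at a Benjamini-Hochberg adjusted p of 0.05 over all genes in edgeR's quasi-likelihood test. That is close to the 11.1% of all genes fitted. At an unadjusted p under 0.05 it was 18 of the 67 (26.9%), against 32.1% of all genes fitted. In Co, 3 of 11 (27.3%) were called, against 25.2%, and the same 3 had an unadjusted p under 0.05, against 35.3% of all genes fitted. A direction left out takes the accession term of its pair with it, and the calls left are then of the other pair. The Cg count was 4 without direction 1 of pair 1, 0 without its direction 2, 2 without direction 1 of pair 2 and 0 without its direction 2. The Co count was 0 without any one of the directions.

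In Cg pair 1 the called genes were those at 2286405–2288937 and 2716508–2719759. The first had 99.4% of 484 and 2.39% of 502 maternal counts, a log2 accession term of 6.24 ± 0.62 (edgeR adjusted p = 0.00189). The second had 97.8% of 230 and 7.39% of 176, a term of 4.53 ± 0.54 (edgeR adjusted p = 0.00371). Neither has an exonic SNP in that pair, and in pair 2, where they have 11 and 8 exonic SNPs, they had 47.3% and 74.0%, and 57.6% and 69.7%.

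For Cg pair 2, the gene at 1957095–1958270 had 3.03% of 33 and 100% of 53 counts, a term of −6.47 ± 0.88 (edgeR adjusted p = 0.00391). In pair 1 the same gene had 61.7% of 2104 and 67.4% of 2368 counts, near the dosage. The gene at 2699702–2703525 had 12.9% of 31 and 94.4% of 71 in pair 2, a term of −3.40 ± 0.72 (edgeR adjusted p = 0.0224), with 54.4% and 70.7% in pair 1. The gene at 2191313, described above, had a term of −1.90 ± 0.39 in pair 2 (edgeR adjusted p = 0.0214).

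The other called genes of Cg pair 2 were P4 and P8, 2 of the 10 paternal genes. Their terms were −5.15 ± 1.08 (edgeR adjusted p = 0.0224) and −2.70 ± 0.49 (edgeR adjusted p = 0.0127). In pair 1 the terms of P4 and P8 were −0.53 ± 0.54 and 0.07 ± 0.40 and were not called. P8 and P4 thus had a paternal share that was even between directions in pair 1 and uneven in pair 2. In pair 2, P4 rests on 25 and 21 counts, and the term of P8 on a sum over SNPs that went different ways. Each of these 2 calls was lost in 3 of the alternatives described below, and the other Cg calls were lost in 2 to 4.

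In Co the gene at 2796315–2799721 (minus strand) had 97.4% of 154 and 3.26% of 184 counts in pair 1, and 97.8% of 411 and 1.51% of 663 in pair 2. Its accession terms were 5.01 ± 0.42 (edgeR adjusted p = 1.04e-29) and 5.74 ± 0.38 (edgeR adjusted p = 8.5e-45). None of its 3 Co SNPs is exonic, and it overlaps the end of the gene at 2791900 on the other strand. In Cg the same gene had 45.4% of 447 and 67.0% of 2003 counts in pair 1 and 53.5% and 62.6% of 155 each in pair 2, and was not called.

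The gene at 2022584–2025090 (plus strand) had 59.6% of 171 and 87.9% of 107 in Co pair 1, and 44.8% of 364 and 80.2% of 491 in Co pair 2. Its terms were −1.05 ± 0.35 (edgeR adjusted p = 0.0152) and −1.16 ± 0.30 (edgeR adjusted p = 0.00101). The gene at 2010474–2010932 (plus strand) had 66.7% of 78 and 7.69% of 26 in Co pair 1, and 67.3% of 104 and 31.2% of 141 in Co pair 2. It was called in pair 1 (1.94 ± 0.70, edgeR adjusted p = 0.0290) and not in pair 2 (1.08 ± 0.58, edgeR adjusted p = 0.245). All 3 Co genes had the same order of directions in both pairs, which come from the same 2 accessions.

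Some switching genes had no SNP in annotated exons. In Cg pair 1, 3 of the 12 switching segment genes had no exonic SNP (25%, against 23.9% of switching genes over all scaffolds). In Cg pair 2 it was 0 of 9 (against 3.42%), in Co pair 1 it was 1 of 3 (33.3%, against 18.9%), and in Co pair 2 it was 3 of 7 (42.9%, against 28.6%). No paternal gene and no gene near the dosage in the segment lacked an exonic SNP in any table. Over all genes of Cg pair 1, 3.12% of paternal genes and 2.18% of genes near the dosage lacked one.

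The limits of the segment were set by position. The first gene inside, at 1807089–1808584, had 61.8% of 254 and 78.2% of 545 counts in Cg pair 1 and 25% of 24 and 78.7% of 47 in Cg pair 2. The nearest gene outside on that side, at 1796094–1796547, had all 12 counts maternal in direction 1 and none of 41 in direction 2 of Cg pair 1. The last gene inside, at 2896033–2900679, had 64.8% of 142 and 28.6% of 133 in Cg pair 1. The nearest gene outside on that side, at 2909749–2911471, had 0 and 3 counts. No edge gene was paternal in both directions.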

How the data were processed

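The deposited tables hold, per the file headers, whole-number maternal and paternal allele counts at SNP positions in 2 cross directions, with the exon and gene interval of each SNP. Species was read from the table names. The submitters' processing notes name Trimmomatic, Bismark and Bowtie2, with no role or version. The RNA aligner, SNP caller and build are not stated in the sources used here. Each deposited table has 23 more columns, which were left aside.

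Counts were summed over the SNPs of a gene. Genes with at least 20 counts in both directions were sorted by share, with Wilson intervals (scipy 1.17.1). For each species, edgeR 4.0.16 (R 4.3.3) fitted the 8 maternal and paternal columns of genes with at least 20 counts in all 4 directions, by quasi-likelihood, with library as a block, accession within each pair, parent, and an offset for the 2:1 dosage. With 1 residual degree of freedom per gene, the fit was tested on simulated data. There it recovered 100% of genes with a simulated accession effect of 3 on the log2 scale in either direction, and 7.41% of accession calls in Cg and 1.96% in Co were false. Of simulated parent calls, 8.26% in Cg were false, so both Cg rates exceed the 5% aimed at. The spread between simulated directions was set in advance and not estimated from these data, so these rates may not hold for them. An SE is the absolute estimate over the square root of F. Alternatives were TMM scaling, DESeq2 1.42.0, other count minimums, exonic SNPs, the deepest SNP per gene, no library block, and each direction left out.

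The rule for named genes took genes paternal in both directions of 2 tables, or under 25% in both directions of Cg pair 1. It also took up to 6 genes near the dosage in all 4 directions of a species, genes measured in all 8 directions, up to 4 accession calls per species, up to 4 maternal genes, neighbours and edge genes. All 7 Cg accession calls and the 14 paternal genes of Cg pair 1 are named, which goes beyond the rule, as does the gene at 2438014, chosen after its values were seen. The members, classes and rules were chosen with earlier results of these data known.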

Additional observations from a re-analysis of the deposited data

Results flagged for a closer look

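Where a gene had 4 values of its maternal share in a species, 38 sets of 4 were examined for one value far from the others. Chance alone sets apart about 1 in 20 such sets. Of the 38, 4 stood out, all in Cg, and in each the value apart was direction 2 of pair 2. P1 had 50% there, P4 had 33.3%, P8 had 67.7%, and the gene at 2805650–2810996 had 70.8%. For P1, P4 and P8 the other directions were all paternal. The gene at 2805650 stayed near the dosage in all 4, and its other 3 shares lay between 63.2% and 64.0%. P1 and P4 rest on 64 and 21 counts in that direction.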

How the results depend on the processing

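Depth limits Cg pair 2 and both Co pairs, where most segment genes missed the minimum. Each species has 4 directions and 1 residual degree of freedom, so calls change readily. Changing one choice at a time left 54 counts within 1.5 times their value and moved 42. The design carried the library as a replicate block. With no replicate block, the Cg parent calls (9), Cg accession calls (7) and Co parent calls (2) were all 0, and the accession terms of the Cg pair 1 genes at 2286405 and 2716508 turned to −0.25 and −1.86. The cause was not tested. DESeq2 gave 0 Co parent calls and 1 Co accession call (against 3). Exonic SNPs alone gave 4 Cg accession calls, 1 Co parent call and 1 Co accession call. With no minimum, 13 Cg genes were called for accession, and with at least 10 counts 5 Co genes were. In Cg pair 2 the 8 paternal genes of 68 became 5 of 44 with at least 50 counts (11.4%, against 3.22% of all measured genes). With the deepest SNP they became 2 of 27 (7.41%, against 1.44%). The deepest SNP left 15 genes near the dosage in Cg pair 2 (against 34) and 2 in Co pair 1 (against 4). In Co pair 2, at least 50 counts left 4 genes near the dosage (against 8). At least 10 counts gave 1 paternal gene there (3.7% of 27, against 1.76% of all measured genes). Leaving out one direction gave 0 to 9 Cg parent calls, 0 to 4 Cg accession calls, 0 Co parent calls and 0 Co accession calls. A class then rests on a single direction: 26 to 31 genes were paternal and 78 to 79 near the dosage in Cg pair 1, 23 to 28 and 37 to 67 in Cg pair 2, 5 to 11 and 5 to 11 in Co pair 1, and 3 to 7 and 9 to 17 in Co pair 2. Where a changed count stands without the share over all genes, nothing particular to the segment is read from it. Of 40 shares of P1 to P10, 5 moved by more than their counting interval with exonic SNPs. With them 1 crossed 50%, that of P1 in direction 2 of Cg pair 2. With the deepest SNP 21 moved and 2 crossed 50%, both in direction 2 of Cg pair 2. These were P1, to 12.5% (against 50%), and P9, to 50% (against 33.9%). P10 moved there to 39.3% (against 18.8%) and stayed under 50%.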
